A study of Mus musculus with 15 samples.

Results

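The 10 genes described here encode the enzymes that methylate lysine 9 of histone H3 (H3K9) and the proteins that read the mark. They were taken by symbol, for what they encode, from 26301 gene numbers counted in mouse 3T3-L1 cells. Earlier results of these data were known when they were chosen. The methyltransferases are Ehmt1 (GLP), Ehmt2 (G9a), Setdb1, Setdb2, Suv39h1, Suv39h2 and Prdm2 (RIZ1), and the readers are the heterochromatin protein 1 (HP1) genes Cbx1 (HP1β), Cbx3 (HP1γ) and Cbx5 (HP1α). All 10 passed the filter on low counts in every comparison.

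Cells of 3T3-L1, a preadipocyte line from mouse embryos, become fat-storing adipocytes when they are induced with hormones, and each library was prepared on day 2 of induction. The study varied JMJD1A (gene Kdm3a), an iron-dependent enzyme that removes methyl groups from H3K9, in 5 stable retroviral lines with 3 libraries each. Control cells carried an empty short hairpin vector (sh-Empty), and knockdown cells carried a hairpin against Jmjd1a (sh-Jmjd1a). The remaining lines, here the rescue set, all carried that hairpin and in addition expressed LacZ as a control, wild-type JMJD1A (JMJD1A(WT)) or JMJD1A(H1122A), which is defective at the site that holds the iron. The sources do not state whether the libraries of a group came from separate infections or cultures, so p-values measure the spread between these libraries, which may be technical.

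Methylation of H3K9 is laid down by enzymes with different products and places of work. The G9a and GLP pair gives mono- and dimethylation in euchromatin, SETDB1 gives trimethylation when zinc finger proteins bring it to DNA through TRIM28, and SUV39H1 and SUV39H2 trimethylate pericentromeric heterochromatin. HP1 proteins bind the di- and trimethylated lysine through their chromodomain, while demethylases such as JMJD1A work in the opposite direction at sites that include genes needed for fat cell formation.

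Total counts ran from 11437058 to 25523148 per library, with the highest in replicate 3 of JMJD1A(WT). Kdm3a was 171, 174 and 185 CPM (counts relative to the library total, scaled by the trimmed mean of M-values, TMM) in sh-Empty and 129, 128 and 138 CPM in sh-Jmjd1a, a fall of 0.42 on the log2 scale (SE 0.048, adjusted p = 2.91e-08, edgeR). In the rescue set it averaged 119 CPM with LacZ, 1690 CPM with JMJD1A(WT) and 2197 CPM with JMJD1A(H1122A), and these counts do not separate the cell's own mRNA from that of the construct. All 10 adipocyte markers passed the filter, as did at least 9 of 10 preadipocyte and fibroblast markers, against 0 of 4 endothelial, 1 of 4 leukocyte and 1 of 4 skeletal muscle markers. That leukocyte marker, Cd68, was called in no comparison, and the muscle marker Des was higher with JMJD1A(WT) than with LacZ by 1.85 and lower with the mutant than with the wild type by a log2 difference of -2.42. The defining markers Pecam1, Ptprc and Myod1 had at most 8, 1 and 0 counts in any library.

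The 250 bases before the start of Setdb1 and of Cbx5 are shown because those 2 genes were called in more comparisons than any other member. They come from RefSeq (GRCm38.p6), read 5′ to 3′ on the gene's strand, and capitals mark matches on either strand to the ETS motif CCGGAAG, the GC box GGGCGG, the CCAAT box CCAAT and the E-box CACGTG.
Setdb1, chr3:95357203-95357452, minus strand: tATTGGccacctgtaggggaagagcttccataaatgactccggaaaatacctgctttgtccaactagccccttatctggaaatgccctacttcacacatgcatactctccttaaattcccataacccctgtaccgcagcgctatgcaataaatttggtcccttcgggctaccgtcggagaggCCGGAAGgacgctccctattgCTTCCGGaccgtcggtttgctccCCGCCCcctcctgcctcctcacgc
Cbx5, chr15:103239853-103240102, minus strand: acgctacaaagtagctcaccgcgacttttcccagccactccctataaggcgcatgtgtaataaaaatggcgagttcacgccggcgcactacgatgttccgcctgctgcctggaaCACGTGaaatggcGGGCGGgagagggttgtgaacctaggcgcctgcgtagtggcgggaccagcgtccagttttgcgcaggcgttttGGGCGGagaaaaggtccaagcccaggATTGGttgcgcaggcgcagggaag
The Setdb1 window held 2 ETS motifs, 1 GC box and 1 CCAAT box, and its GC content was 54.4%. An ETS match was found in 6.91% of 32851 mouse promoter windows of the same length. In the Cbx5 window there were 2 GC boxes, 1 CCAAT box and 1 E-box, which 32.7%, 33.9% and 6.02% of all windows contained. Both windows shown were rich in CpG, with 13 for Setdb1 and 22 for Cbx5 against a median of 6 over all windows. A second annotated window of Cbx5 (chr15:103215353-103215602), not shown, had 7 CpG, 1 GC box and no CCAAT box or E-box. RefSeq gave a window for 9 of the 10 members, the exception being Prdm2. These matches describe the letters only.

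Compared per length of exon, the members covered a wide range. Ehmt2 was the highest at 66.7 CPM per kb (mean of the 5 groups), followed by Cbx5 at 37.5, Cbx3 at 30.1 and Setdb1 at 28.2 CPM per kb. Prdm2 at 13.9, Cbx1 at 12.1 and Ehmt1 at 11.95 CPM per kb formed a middle level. Suv39h1 was at 6.44 CPM per kb, and Setdb2 and Suv39h2 were the lowest at 2.18 and 1.74 CPM per kb. Between its highest and lowest group, Setdb1 varied 1.88-fold and Cbx5 1.40-fold, whereas the other 8 members varied 1.04-fold to 1.29-fold. The exon lengths are those of the mm9 gene models, from 3229 bases for Cbx3 to 9006 bases for Cbx5. They sum all annotated exons of a gene, and the annotation used for the counting is not given and may differ. The order of members with close values is therefore uncertain.

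**Figure D1:**
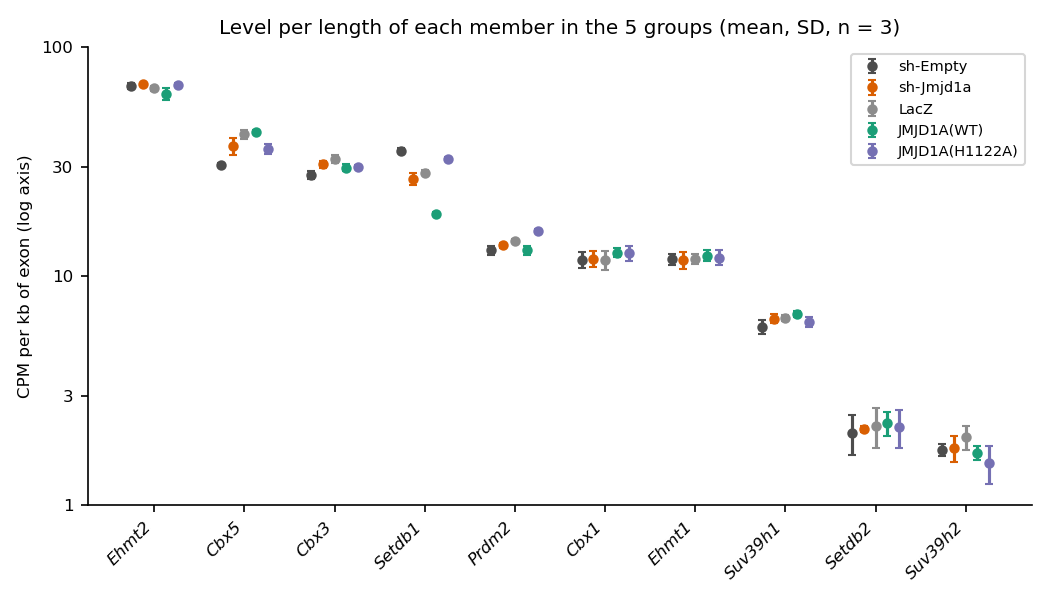
Level of each member in CPM per kb of exon (log axis) in the 5 groups, as mean and SD of 3 libraries, ordered from the highest member to the lowest. Ehmt2 leads at 66.7 and Suv39h2 is last at 1.74 (means of the 5 groups), and Setdb1 shows the widest spread between groups.

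In the knockdown, 3 of the 10 members were called at an adjusted p under 0.05: Cbx5 and Cbx3 rose and Setdb1 fell. Over all 12272 genes tested, 46.2% were called, 22.3% higher and 23.9% lower. The median size of the members' log2 differences was 0.04, against 0.22 over all genes tested.

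Between JMJD1A(WT) and LacZ, Setdb1 alone of the 10 was called, and it fell. The share called over 12557 genes was 9.5%, with 4.98% higher and 4.52% lower. Here the median size of the differences was 0.09 for the members and 0.09 for all genes.

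Between JMJD1A(H1122A) and JMJD1A(WT), 4 members were called: Setdb1, Prdm2 and Ehmt2 were higher with the mutant and Cbx5 was lower. Of all genes 23.8% were called, 12.1% higher and 11.7% lower. The median size was 0.12 for the members and 0.14 for all genes. Against LacZ, the mutant differed in 2 members, Setdb1 higher and Cbx5 lower, where 9.24% of all genes were called, 4.78% higher and 4.46% lower. The 3 comparisons within the rescue set share libraries, so their calls are not independent of each other.

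**Figure D2:**
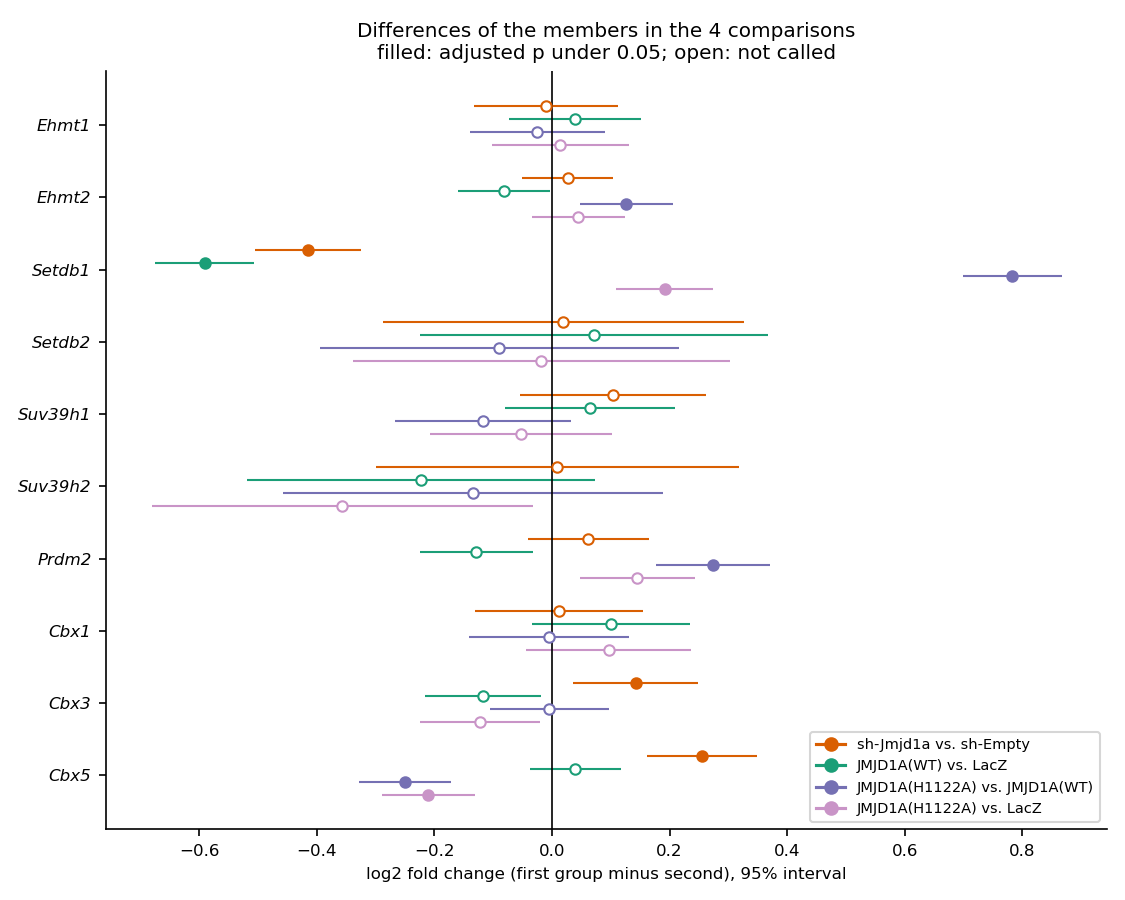
Log2 fold change of each member in the 4 comparisons, with 95% intervals from the edgeR fit; filled points passed an adjusted p of 0.05. Setdb1 lies farthest from 0 in the first 3, at -0.42, -0.59 and 0.78, and at 0.19 in the fourth, where Suv39h2 at -0.36 and Cbx5 at -0.21 lie farther out.

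Setdb1 encodes the H3K9 methylating enzyme of the TRIM28 and ATF7IP complexes. On mm9 it spans chr3:95127447-95161124 on the minus strand. Its level was 250.3, 238 and 245 CPM in the sh-Empty libraries and 177, 176 and 196 CPM in the sh-Jmjd1a libraries, so that every knockdown library lay below every control. Setdb1 fell by 0.42 on the log2 scale (SE 0.046, 95% interval -0.51 to -0.33, adjusted p = 1.61e-08), to 0.75 of the control level. That is close to the value for Kdm3a itself in the same libraries. Replicate 3 of sh-Jmjd1a, which differed most from the other libraries of its group over all genes, had the highest Setdb1 of the 3, and without it the difference was -0.46.

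Setdb1 was also lower in the cells with the wild-type construct, whose Kdm3a counts were far above those of sh-Empty. The LacZ libraries had 197, 188 and 192 CPM and the JMJD1A(WT) libraries 126, 129 and 129 CPM. The groups did not overlap, and the difference was -0.59 (SE 0.043, 95% interval -0.68 to -0.51, adjusted p = 1.02e-14), with JMJD1A(WT) at 0.66 of LacZ. The comparison with LacZ and the knockdown comparison have no library in common. With JMJD1A(H1122A), Setdb1 was 222.5, 223 and 214 CPM. It was therefore higher than with JMJD1A(WT) by 0.78 (SE 0.043, adjusted p = 2.81e-19), which is 1.72-fold, and higher than with LacZ by 0.19 (SE 0.042, adjusted p = 0.00154), which is 1.14-fold.

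Placed on 1 scale over the 15 libraries, mean Setdb1 went from 128 CPM in JMJD1A(WT) through 182 CPM in sh-Jmjd1a, 193 CPM in LacZ and 221.5 CPM in JMJD1A(H1122A) to 241 CPM in sh-Empty. The libraries of sh-Jmjd1a and LacZ overlapped, and no other neighbours in this order did. Levels across the knockdown and rescue sets are given as a description without a test.

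The adipocyte markers moved with each of these comparisons, but not always the way of Setdb1. The knockdown cells had all 10 of them lower, and JMJD1A(WT) cells had all 10 higher than LacZ cells, while Setdb1 fell in both comparisons. In JMJD1A(WT) against LacZ, 8 of the 10 were called with DESeq2, without replicate 2 or 3 of LacZ and without replicate 1 or 2 of JMJD1A(WT), and 9 without replicate 1 of LacZ. Summed over the list, they came to 5272 to 5356 CPM in sh-Empty, 2683 to 2828 CPM in sh-Jmjd1a, 3398 to 3473 CPM in LacZ, 3905 to 4269 CPM in JMJD1A(WT) and 2608 to 2717 CPM in JMJD1A(H1122A). Their part in the Setdb1 result was not tested. In these bulk samples, fewer cells that express a gene and less of its RNA per cell cannot be told apart.

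**Figure D3:**
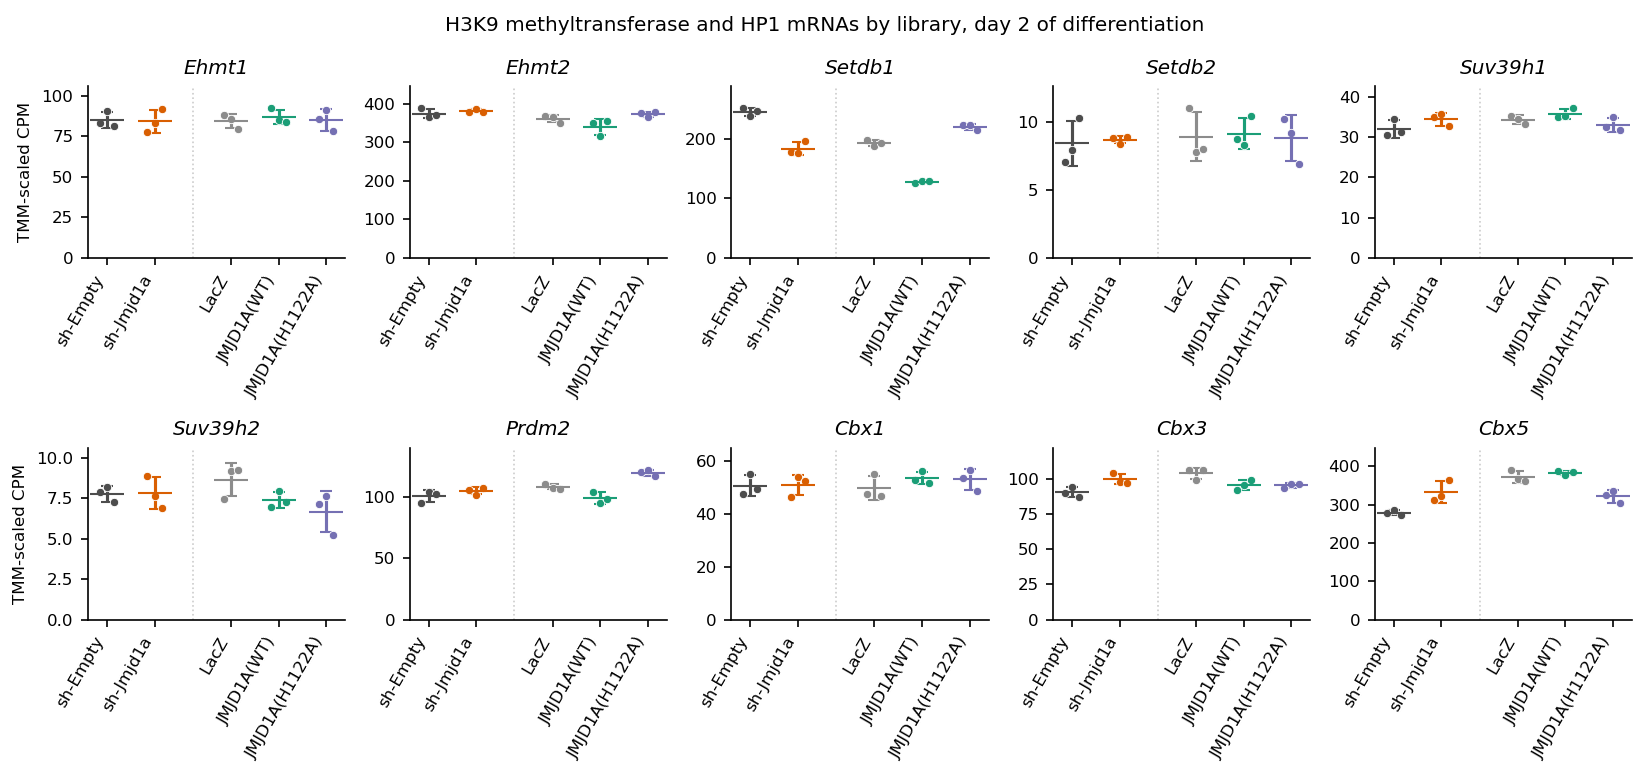
TMM-scaled CPM of each member in every library (points), with the group mean and SD (bars, n = 3); the dotted line parts the knockdown set from the rescue set, which were scaled apart. For Setdb1 the JMJD1A(WT) libraries lie at 126 to 129 CPM, below all others, and for Cbx5 the sh-Empty libraries are the lowest.

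Setdb2, the other member of this pair, was low. It had 80 to 268 counts per library and group means from 8.42 to 9.15 CPM. None of its 4 differences was called, with log2 values from -0.09 to 0.07. The precision was low as well: the 95% interval for the knockdown ran from -0.29 to 0.33.

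Ehmt2 encodes G9a, the main H3K9 dimethyltransferase. It stood at 388, 366 and 370.2 CPM in sh-Empty and at 379, 386 and 379.5 CPM in sh-Jmjd1a, a difference of 0.03 (adjusted p = 0.612) with overlapping groups. In the rescue set the libraries had 368, 365 and 350.4 CPM with LacZ, 351, 317 and 354.5 CPM with JMJD1A(WT) and 376, 364 and 378 CPM with JMJD1A(H1122A). Replicate 2 of JMJD1A(WT) was the lowest of all. The mutant was higher than the wild type by 0.13 (SE 0.040, adjusted p = 0.0174), or 1.09-fold, and this call was lost without that library, where the difference was 0.08 (adjusted p = 0.169). It was also lost without replicate 1 of JMJD1A(H1122A) (0.12, adjusted p = 0.067) and without replicate 3 (0.12, adjusted p = 0.0568).

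Its partner Ehmt1, which encodes GLP, varied least. The 15 libraries ranged from 77.6 to 92.1 CPM, and group means ran from 84.2 to 86.9 CPM. The knockdown difference was -0.01 with a 95% interval from -0.13 to 0.11, and the other 3 were between -0.02 and 0.04. Its 4 intervals together reached from -0.14 to 0.15, so larger differences of Ehmt1 lay outside them.

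Suv39h1 and Suv39h2 encode the enzymes of constitutive heterochromatin, and neither was called in any comparison. For Suv39h1 the group means were 32.1 CPM in sh-Empty, 34.4 in sh-Jmjd1a, 34.4 in LacZ, 35.7 in JMJD1A(WT) and 33.1 in JMJD1A(H1122A). Its differences ran from -0.12 to 0.10. Suv39h2 was 7.46, 9.20 and 9.26 CPM in the LacZ libraries and 7.12, 7.66 and 5.23 CPM in those of JMJD1A(H1122A). The ranges overlapped, and the difference of -0.36 (SE 0.165, 95% interval -0.68 to -0.03) had an unadjusted p of 0.0366 and an adjusted p of 0.196. With 61 to 188 counts per library, Suv39h2 was the least deeply counted member. Ehmt1, Setdb2, Suv39h1, Suv39h2 and Cbx1 are grouped here because edgeR's quasi-likelihood test called none of them. Their 0 of 20 calls by that test follow from this choice and are not a result. Of the 20 tests, 1 had an unadjusted p under 0.05, and 0 were called by DESeq2.

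Prdm2 encodes RIZ1, a PR domain protein with H3K9 methyltransferase activity. The knockdown difference was 0.06 (adjusted p = 0.362), from 95.2, 104 and 103 CPM to 106, 102 and 107.5 CPM. LacZ libraries had 111, 108 and 107 CPM, JMJD1A(WT) libraries 104, 95.2 and 98.4 CPM, and JMJD1A(H1122A) libraries 120.4, 122 and 117 CPM. No 2 of these 3 groups overlapped, in the order wild type, LacZ and mutant. The mutant was higher than the wild type by 0.27 (SE 0.049, adjusted p = 2.91e-05), or 1.21-fold. Prdm2 differed by -0.13 between JMJD1A(WT) and LacZ (adjusted p = 0.101) and by 0.15 between the mutant and LacZ (adjusted p = 0.0561), neither of which passed. The second value did pass, at 0.0438, in a fit of all 15 libraries.

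Among the readers, Cbx5 moved most. It encodes HP1α, the HP1 protein of pericentromeric heterochromatin, and spans chr15:103021975-103070247 on mm9. The sh-Empty libraries had 279, 285 and 273 CPM and the sh-Jmjd1a libraries 311, 323 and 364 CPM, with no overlap. Cbx5 rose by 0.26 (SE 0.048, 95% interval 0.16 to 0.35, adjusted p = 7.68e-05), or 1.19-fold. Replicate 3 of sh-Jmjd1a was again the one set apart, and without it the rise was 0.20 (adjusted p = 6.61e-06).

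In the rescue set Cbx5 was 390.5, 367 and 361 CPM with LacZ and 388, 376.5 and 385 CPM with JMJD1A(WT). Those ranges overlapped, and the difference was 0.04 (95% interval -0.04 to 0.12, adjusted p = 0.648). JMJD1A(H1122A) libraries had 325, 336 and 304 CPM, below every library of the other groups in the set. The mutant was lower than the wild type by a log2 difference of -0.25 (SE 0.040, adjusted p = 3.83e-06) and lower than LacZ by -0.21 (SE 0.040, adjusted p = 0.000293). On the 15-library scale, sh-Empty had the lowest mean, 275.5 CPM, and the ranges of JMJD1A(H1122A) at 324 CPM and sh-Jmjd1a at 331 CPM overlapped, as did those of LacZ at 374 CPM and JMJD1A(WT) at 385 CPM.

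HP1γ, encoded by Cbx3, binds euchromatin as well as heterochromatin. Cbx3 was 90.0, 94.4 and 87.1 CPM in sh-Empty and 104, 98.2 and 97.2 CPM in sh-Jmjd1a, which did not overlap. The rise of 0.14 (SE 0.054, adjusted p = 0.0323) had the highest adjusted p of the called differences. It did not pass without replicate 1 of sh-Empty (0.14, adjusted p = 0.0791), without replicate 3 of sh-Empty (0.11, adjusted p = 0.172) or without replicate 1 of sh-Jmjd1a (0.11, adjusted p = 0.147), nor with DESeq2 (0.15, adjusted p = 0.0747). Rescue means were 104 CPM with LacZ, 95.6 with JMJD1A(WT) and 95.6 with JMJD1A(H1122A), and the log2 differences from LacZ were -0.12 (adjusted p = 0.157) and -0.12 (adjusted p = 0.147). Cbx3 has processed pseudogenes, and reads that match them equally could have been lost or split in the counting.

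Cbx1, which encodes HP1β, had group means from 49.9 to 53.8 CPM and was called in no comparison. Its differences ran from 0.00 to 0.10. The 95% interval of the largest, between JMJD1A(WT) and LacZ, was -0.03 to 0.24.

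Proteins that work with these enzymes and readers were taken from a list of 20, among them subunits of the TRIM28, HUSH, G9a and chromatin assembly complexes. In the knockdown 6 of the 20 rose and 1 fell, with a median of 0.05, while 46.2% of all genes were called. The largest rise was that of Chaf1b, a subunit of the assembly factor CAF-1 that deposits histones at replication forks, at 0.70 (SE 0.094, adjusted p = 5.55e-07), and the fall was that of Lbr, the lamin B receptor that binds HP1, by 0.16 (adjusted p = 0.0436), a call that 11 of 13 other fits did not make. The total of 7 calls went down to 4 with DESeq2 and also without replicate 1 of sh-Empty or of sh-Jmjd1a. In JMJD1A(WT) against LacZ 1 rose and 0 fell, where 9.5% of all genes were called. In the mutant against LacZ 0 were higher and 1 was lower, where 9.24% of all genes were called. In the mutant against the wild type 1 was higher and 4 were lower, and leaving out 1 library gave 2 to 6 calls in all. There 23.8% of all genes were called.

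Atf7ip, whose product binds SETDB1 and keeps it in the nucleus, was the 1 partner that rose with JMJD1A(WT). Its mean went from 81.5 CPM in LacZ to 98.1 CPM in JMJD1A(WT), a difference of 0.27 (SE 0.056, adjusted p = 0.000609), and was 79.3 CPM in JMJD1A(H1122A), a difference of -0.31 from the wild type (adjusted p = 4.78e-05). In both comparisons Setdb1 differed in the other direction. Atf7ip also rose in the knockdown, by 0.15 (adjusted p = 0.0362), where Setdb1 fell, but 6 of 13 other fits did not call it. Trim28, the corepressor that recruits SETDB1 and a gene named here after its values were seen, had log2 differences between -0.05 and 0.03 in the 4 comparisons, and none was called. In the mutant, Pphln1, a subunit of the HUSH complex, was lower than with LacZ by a log2 difference of -0.18 (adjusted p = 0.0268), and Hp1bp3, a linker histone-like protein that binds HP1, was higher than with the wild type by 0.11 (adjusted p = 0.0427); 5 and 8 of 17 other fits did not make these calls.

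The demethylases that act against these enzymes were 11, of which 10 could be tested; Kdm4d had 0 to 6 counts per library. In the knockdown Kdm3a, Kdm7a and Phf8 fell and Kdm3b and Phf2 rose. That is 5 of the 10 tested, where 46.2% of all genes were called. Kdm7a and Phf8 encode related demethylases with a PHD finger, and fell by 0.54 (adjusted p = 1.07e-09) and 0.60 (adjusted p = 2.34e-07). Phf2, of the same subfamily, rose by 0.23 (adjusted p = 0.00114).

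Kdm3b encodes the closest relative of JMJD1A with demethylase activity. It rose in the knockdown by 0.23 (SE 0.058, adjusted p = 0.00181), fell with JMJD1A(WT) against LacZ by 0.19 (SE 0.056, adjusted p = 0.0253) and was higher with the mutant than with the wild type by 0.24 (SE 0.057, adjusted p = 0.00147). Mutant and LacZ differed by 0.05 (adjusted p = 0.681). Jmjd1c, the third gene of that family, fell with JMJD1A(WT) by 0.13 (adjusted p = 0.0456). The falls of Kdm3b and Jmjd1c with JMJD1A(WT) were not called by DESeq2, nor without replicate 1 or 3 of LacZ or replicate 2 or 3 of JMJD1A(WT). In all, 5 of 17 other fits did not call the fall of Kdm3b, and 9 of 17 did not call that of Jmjd1c. The latter include the fit of all 15 libraries and that of only the 2 groups compared. With the mutant against the wild type, Kdm4b, a demethylase of trimethylated H3K9, was higher by 0.28 (adjusted p = 0.00038), Kdm7a was lower by a log2 difference of -0.18 (adjusted p = 0.00473, or 0.0683 without replicate 3 of the wild type) and Kdm3a was higher by 0.38. Kdm4a, Kdm4c and Kdm1a were called in no comparison, with values from -0.16 to 0.09. In JMJD1A(WT) against LacZ, 3 of the 10 tested demethylases were called, where 9.5% of all genes were. In the mutant against the wild type 4 were called, where 23.8% of all genes were. In the mutant against LacZ 1 was called, where 9.24% of all genes were. Kdm3a, whose counts include the construct, was among those called each time.

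Mecom, a PR domain gene for which H3K9 monomethyltransferase activity has been described, was called in each comparison. It rose by 0.99 in the knockdown (22.1 to 43.5 CPM, adjusted p = 1.38e-10) and fell with JMJD1A(WT) by 0.24 (adjusted p = 0.0318), which 7 of 17 other fits, DESeq2 among them, did not call. The mutant was higher than the wild type by 0.53 (adjusted p = 4.06e-07) and higher than LacZ by 0.28 (adjusted p = 0.0113), a call lost without replicate 2 of LacZ and without replicate 1 of the mutant (adjusted p up to 0.164). Prdm16, the other gene of that pair, had 0 counts in all 15 libraries.

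Germline genes that H3K9 and DNA methylation keep silent in somatic cells were at trace levels. Of 10, only Ddx4 and Sycp3 passed the filter in the knockdown set, and Taf7l in addition in the rescue set. None of these was called by edgeR or by DESeq2, and 1 of the 11 tests had an unadjusted p under 0.05. The highest group mean among them was 3.07 CPM, for Ddx4 in sh-Jmjd1a. Without the filter on low counts, Taf7l was called in the knockdown (adjusted p = 0.017), as it was in the fit of all 15 libraries (adjusted p = 0.0213), on 3, 0 and 2 counts in sh-Empty and 2, 18 and 6 counts in sh-Jmjd1a. Without replicate 2 of JMJD1A(WT), Ddx4 was lower in the mutant than in the wild type (adjusted p = 0.0377).

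Genes of the cell cycle moved in the comparison in which Cbx5 and Cbx3 rose, where 22.3% of all genes were higher and 23.9% lower. In the knockdown 14 of 20 DNA replication genes rose and 1 fell, led by the primase subunit Prim1 at 0.89 (adjusted p = 3.38e-09), while the ribonucleotide reductase subunit Rrm2 fell by 0.14 (adjusted p = 0.027), which 7 of 13 other fits did not call. Of 20 mitosis genes, 18 rose and 0 fell, with the cytokinesis kinesin Kif23 at 0.99 (adjusted p = 6.82e-11). The summed level of the mitosis list was 1677 to 1759 CPM in sh-Empty and 2189 to 2255 CPM in sh-Jmjd1a, and that of the replication list 1340 to 1357 CPM and 1855 to 1939 CPM. Their part in the rise of the readers was not tested.

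In the rescue set fewer genes of these lists were called, and also fewer of all genes, 46.2% of which were called in the knockdown. Of all genes, 9.5% were called in JMJD1A(WT) against LacZ, 23.8% in the mutant against the wild type and 9.24% in the mutant against LacZ. With JMJD1A(WT) against LacZ, 0 of 20 mitosis genes were called by edgeR or DESeq2 (1 had an unadjusted p under 0.05) and 1 of 20 replication genes, Pcna, fell, by 0.16 (adjusted p = 0.0132), a call lost without replicate 3 of LacZ and without replicate 1 or 3 of JMJD1A(WT), where the adjusted p reached 0.131. In the mutant against the wild type, where Cbx5 was lower, 5 mitosis genes were higher and 0 lower, led by Kif20a at 0.32 (adjusted p = 9.44e-07), and 1 replication gene was higher, Pcna at 0.52 (adjusted p = 2.74e-13), and 5 were lower, with Ccne1 at -0.34 (adjusted p = 0.000194); without replicate 1 or 3 of the mutant or replicate 1 of the wild type, 2 were lower. Against LacZ, the mutant had 2 mitosis genes higher and 0 lower, and 1 replication gene higher and 1 lower.

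Of the adipocyte markers, Cfd fell by 3.73 in the knockdown, and Retn differed by 2.47 between JMJD1A(WT) and LacZ and by -3.64 between the mutant and the wild type. Against LacZ, 9 of 10 were lower in the mutant, among them Adipoq at -1.26. Of all genes, 46.2% were called in the knockdown and 9.5% in JMJD1A(WT) against LacZ. In the mutant, 23.8% were called against the wild type and 9.24% against LacZ. The preadipocyte and fibroblast list split in each comparison, with 6 higher and 2 lower of 9 in the knockdown (Col1a1 at 1.42 and Dlk1 at -0.76), 4 higher and 1 lower of 10 with JMJD1A(WT) (Ly6a at 1.25 and Vim at -0.14), 4 higher and 3 lower with the mutant against the wild type (Thy1 at 0.31 and Ly6a at -1.54), and 4 higher and 1 lower against LacZ (Pdgfrb at 0.30 and Dlk1 at -0.53).

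**Figure D4:**
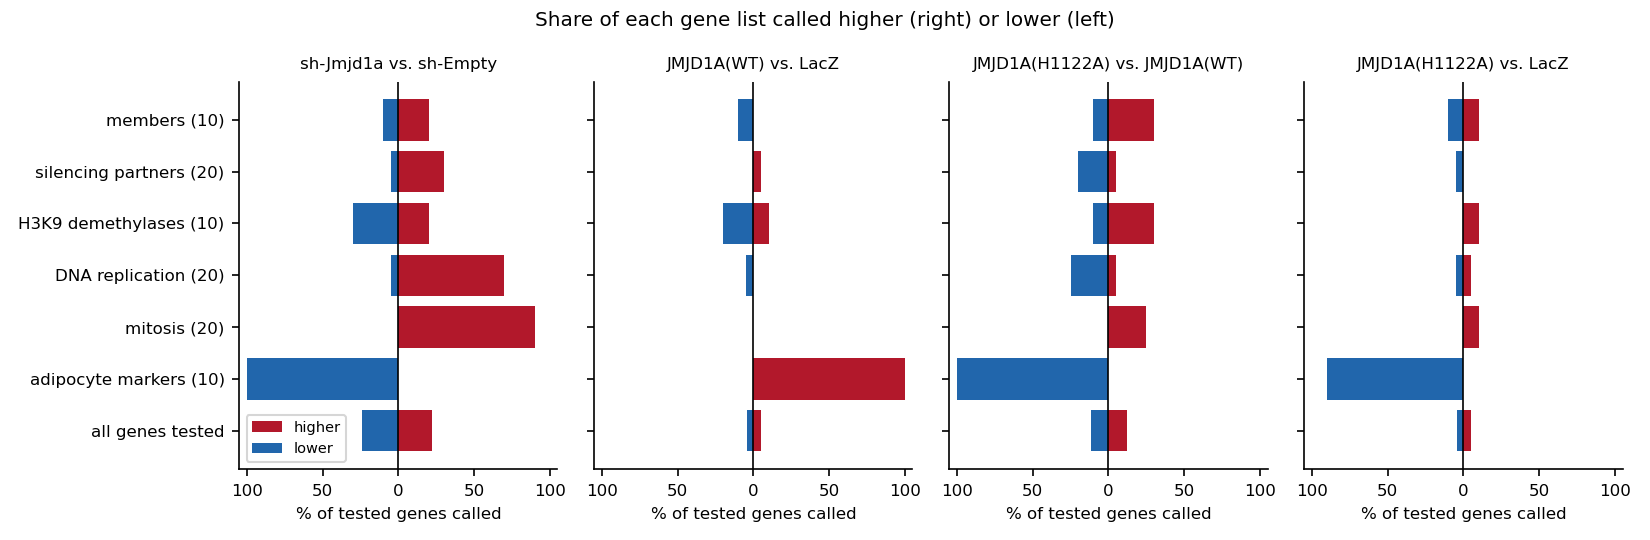
Share of the tested genes called higher (bars to the right) or lower (bars to the left) at an adjusted p under 0.05 in the 4 comparisons, in percent. Shown are the members and the lists of silencing partners, demethylases, replication genes, mitosis genes and adipocyte markers, with all genes tested at the bottom. The preadipocyte and fibroblast list is not drawn. In the knockdown 3 of 10 members are called against 46.2% of all genes, while all 10 adipocyte markers are lower there.

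Where a member shares exon sequence or a start region with another gene, both were examined, because the strand setting of the counting is not given in the sources used here. Setdb1 overlaps Cers2, a ceramide synthase gene on the opposite strand, by 64 exonic bases, 0.93% of its exon length. Cers2 fell in the knockdown by 0.18 (adjusted p = 0.00157) and with JMJD1A(WT) by 0.18 (adjusted p = 0.0104, or 0.0763 without replicate 3 of JMJD1A(WT)) and was higher with the mutant than with the wild type by 0.20 (adjusted p = 0.00196), while mutant and LacZ differed by 0.02 (adjusted p = 0.877). The first 3 signs are those of Setdb1, at smaller size. Suv39h1 overlaps Gm14820 by 596 bases, 11.3% of its exon length. Suv39h2 overlaps Dclre1c, a nuclease gene of DNA repair, by 357 bases (8.1%) and Gm13184 by 83 bases (1.88%). Dclre1c was called in no comparison, with values from -0.24 to 0.24, and no value is given for Gm14820 or Gm13184.

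For 4 members, another gene starts within 1000 bases on the other strand. Hnrnpa1, an RNA-binding protein gene that starts 698 bases from Cbx5, rose with it in the knockdown, by 0.17 (SE 0.038, adjusted p = 0.000711). In the rescue set its differences were 0.00, 0.01 and 0.02, whereas Cbx5 was lower in the mutant. Hnrnpa2b1, 466 bases from Cbx3, differed by 0.01 in the knockdown (adjusted p = 0.79), where Cbx3 rose, and by -0.11 between the mutant and the wild type (adjusted p = 0.00915, or 0.0526 without replicate 2 of the wild type), where Cbx3 differed by 0.00. Cab39l, 97 bases from Setdb2, fell in the knockdown by 0.42 (adjusted p = 7.8e-05), where Setdb2 differed by 0.02. The complement gene C2, 17 bases from Ehmt2, had 0 to 6 counts per library and was not tested.

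The genes whose levels followed those of Setdb1 most closely over the 15 libraries, out of 10222 with a mean of at least 5 CPM, were Enc1 (Pearson's r = 0.97), Ugt1a6b (0.97) and Lgr4 (0.97). Enc1 differed by -0.25, -0.36, 0.53 and 0.17 in the knockdown, the wild type against LacZ, the mutant against the wild type and the mutant against LacZ, each of which was called. Ugt1a6b belongs to a cluster whose members share their 3′ exons, so that its counts are uncertain. For Cbx5 the closest were Lrrc58 (0.97), Atl3 (0.95) and Bbx (0.95). Lrrc58 differed by 0.33, 0.06, -0.36 and -0.30 in the same order, of which all but the second were called.

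For Prdm2 the 3 closest were Dclk1, Wrn and Frmd6 (0.93, 0.92 and 0.92), for Cbx3 they were Slc41a1, Rap1a and Mob1a (0.90, 0.89 and 0.88), and for Ehmt2 they were Arl2, Eef2 and Foxf2 (0.87, 0.86 and 0.83). For the other 5 members the highest values were 0.84 for Ehmt1 (Usp7, then Uggt1 and Anapc1), 0.82 for Suv39h1 (Ctcf, then Zxda and Ice2), 0.79 for Suv39h2 (Rmdn1, then Zfp770 and Eif2b3), 0.78 for Setdb2 (Pggt1b, then Ubr1 and Kdm2a) and 0.74 for Cbx1 (Sike1, then Topors and a gene without a symbol). The points share libraries, depth and group structure, and these values are a description without a test.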

How the data were processed

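Poly(A) RNA of 15 libraries was sequenced as paired reads. Per the labels and the study's methods, the authors cleaned the reads with fastp and ran HISAT2 against mm9, and featureCounts gave the reads per Entrez gene; the annotation and the strand setting are not given in the sources used here, and the kit is named as directional in the methods but not in the labels. The deposited values are raw counts. Symbols were matched through RefSeq for 24191 of 26301 gene numbers. Members and lists were chosen with earlier results of these data known.

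Separate fits were made of the 6 sh-Empty and sh-Jmjd1a libraries and of the 9 rescue libraries with edgeR 4.0.16 (R 4.3.3), using TMM scaling, filterByExpr with a minimum count of 10 and the quasi-likelihood test; p-values were two-sided and Benjamini-Hochberg adjusted over all genes tested, and called means an adjusted p under 0.05. Log2 fold changes are the fit's, CPM are TMM-scaled, and likeness used log2 CPM with a prior count of 2. Levels per length divided CPM by the summed exon length of GENCODE gene models on mm9. Intervals are 95%. In simulated counts for the knockdown (12169 genes), 200 genes were changed 2-fold and 200 were changed 1.3-fold. Of those tested, 93.9% and 62.4% were called, and 5.50% of all calls were false. For the 3 rescue comparisons, 89.9% to 92.0% and 61.5% to 66.0% were called. False calls there were 7.81% in JMJD1A(WT) against LacZ, 3.16% in the mutant against the wild type and 3.73% in the mutant against LacZ. Far more genes were called in the real knockdown, so these shares may not hold there.

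The text names all members, Kdm3a, the H3K9 demethylases, the largest called increase and decrease of each other list with a mean of at least 5 CPM, genes that share exons or a start region with a member, and the 3 genes most like each member. Replicates of a group differed by more than sampling noise (chi-square per degree of freedom 2.06 to 5.22), so none was merged. Alternatives were other scaling, DESeq2 1.42.0, no filter, the legacy quasi-likelihood method, all 15 libraries in 1 fit, only the 2 groups compared, thinned libraries, a replicate block, a threshold of 0.01 and each library left out.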

Additional observations from a re-analysis of the deposited data

How the results depend on the processing

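The calls of Setdb1 in all 4 comparisons, of Cbx5 in 3 and of Prdm2 between the mutant and the wild type held under every alternative run. Over these alternatives, the count of all genes called ranged over 4433 to 5713 in the knockdown and 733 to 1393 in JMJD1A(WT) against LacZ. For the mutant it ranged over 1995 to 3283 against the wild type and 576 to 1413 against LacZ. The number of members called ranged over 2 to 3 in the knockdown, was 1 in each fit of JMJD1A(WT) against LacZ, and ranged over 3 to 4 and 2 to 3 for the mutant against the wild type and against LacZ. Of the single values, 10 no longer passed, all of Cbx3 in the knockdown or Ehmt2 in the mutant against the wild type (at 0.01, 0.14 with adjusted p = 0.0323 and 0.13 with 0.0174), and 3 newly passed, all of Prdm2 in the mutant against LacZ (with replicate block, all libraries in 1 fit, or without replicate 2 of JMJD1A(WT), adjusted p = 0.0453). Calls among the 20 silencing partners went from 7 to 3 in the knockdown and from 5 to 2 in the mutant against the wild type at 0.01, those among the demethylases in JMJD1A(WT) against LacZ from 3 to 1 with DESeq2 or at 0.01, and those among replication and mitosis genes in the mutant against the wild type from 6 to 2 and from 5 to 3 at 0.01. Another scaling moved the median of all genes by at most 0.01.

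Differences near 0 that were never called changed sign. In 1 fit of all libraries the knockdown value of Ehmt1 was 0.00 and the mutant against wild-type value of Cbx3 was 0.00. In thinned libraries the knockdown values of Ehmt1 and Cbx1 were 0.01 and -0.01, and the mutant against LacZ values of Ehmt1 and Suv39h1 were -0.01 and 0.00. Leaving out 1 library gave ranges in the knockdown of -0.03 to 0.08 for Cbx1, -0.08 to 0.22 for Setdb2, -0.09 to 0.10 for Suv39h2 and -0.07 to 0.04 for Ehmt1. In JMJD1A(WT) against LacZ they were -0.07 to 0.25 for Setdb2 and 0.00 to 0.07 for Ehmt1. In the mutant against the wild type they were -0.03 to 0.03 for Cbx3, -0.06 to 0.05 for Cbx1, -0.21 to 0.06 for Setdb2, -0.25 to 0.00 for Suv39h2 and -0.08 to 0.03 for Ehmt1. In the mutant against LacZ they were -0.14 to 0.17 for Setdb2 and -0.04 to 0.07 for Ehmt1. The cause was not tested.

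Deviations of libraries with the same replicate number had correlations from -0.044 to 0.054, and those with different numbers from -0.057 to 0.065. The main fits therefore used no pairing, although such values cannot show that the libraries were unpaired. With a replicate block, 2 members were called in the knockdown (Cbx3 at 0.14, adjusted p = 0.0524), 1 in JMJD1A(WT) against LacZ, 4 in the mutant against the wild type and 3 in the mutant against LacZ (Prdm2 at 0.15, adjusted p = 0.037). Over all genes, calls in the mutant against LacZ went from 1160 to 764 without replicate 3 of LacZ, to 674 without replicate 1 of JMJD1A(H1122A) and to 576 at 0.01, and calls in JMJD1A(WT) against LacZ went from 1193 to 733 at 0.01. With 61 to 268 counts per library, small differences of Setdb2 and Suv39h2 were not detectable at this depth.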

Other observations

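Cers2, which overlaps Setdb1, had the signs of Setdb1 in 3 comparisons. The genes with a start within 250 kb of that of Setdb1 on mm9 were therefore examined after these values were seen. Cers2 itself is counted among these genes and was called in those 3 comparisons, so the counts and medians include the values that prompted the look. In the knockdown 15 could be tested, of which 4 rose and 2 fell, with a median log2 difference of 0.09, where 22.3% of all genes were higher and 23.9% lower. Between JMJD1A(WT) and LacZ, 0 of 16 were higher and 3 were lower (Cers2, Arnt at -0.16 and Ctsk at -0.25), with a median of -0.12, against 4.98% and 4.52% of all genes. Between the mutant and the wild type, 7 of 16 were higher and 0 lower, against 12.1% and 11.7% of all genes, with a median of 0.20 and a highest value of 0.63 for Ctsk, the cathepsin K gene. Arnt, which encodes the dimer partner of the hypoxia-inducible factors, differed by 0.25 there (adjusted p = 0.000162), and Setdb1 by 0.78. In the knockdown Arnt rose by 0.13 and Ctsk by 0.53, where Setdb1 fell. Between the mutant and LacZ, 2 of 16 were higher and 0 lower, against 4.78% and 4.46% of all genes. These values are a description of neighbouring genes, chosen after seeing the data.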
